A study of Mus musculus with 11 samples.

Results

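The immunoglobulin heavy chain variable genes, named Ighv with a family number and a position number, were taken from the count table as every gene whose symbol starts with Ighv. There were 185 such genes among 55471 genes of the table. RNA had been sequenced from 11 libraries of CD4+ cells from C57BL/6 lymph nodes (axillary and inguinal). The GLC group has 6 libraries from Pggt1bfl/flLys-Cre mice, in which Pggt1b, a gene for a subunit of an enzyme that attaches lipids to proteins, is deleted conditionally in macrophages. The WT group has 5 libraries from C57BL/6 WT mice. Cells of both groups had been enriched with an untouched bead kit and kept with concanavalin A, a T cell activating lectin, at 1.25 μg/ml for 2 h. The Lys-Cre driver acts in myeloid cells, so the CD4+ cells themselves are not the cells in which the deletion is described. The sources used here do not give the ages of the mice.

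Antibody heavy chains are made by B cells, which join 1 variable (V), 1 diversity (D) and 1 joining (J) segment at the Igh locus and splice the joined exon to a constant region. Each B cell clone keeps the V gene it joined, so V transcripts of a tissue sample reflect which clones it holds. Antibody-secreting plasma cells carry far more of this RNA per cell than resting B cells, and T cells do not make antibody. V pseudogenes cannot encode a working chain, but their transcripts can still be read.

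The 4 Ighv genes of highest mean level over all libraries are shown by the last 120 bases up to and just past the conserved cysteine of the V segment, because this end is where the D segment is joined. Capitals mark the motif TATTNNTGT, whose last 3 letters are the cysteine codon. The sequences are the reference transcripts of GENCODE M21 on GRCm38, not reads of these mice.
Ighv1-9: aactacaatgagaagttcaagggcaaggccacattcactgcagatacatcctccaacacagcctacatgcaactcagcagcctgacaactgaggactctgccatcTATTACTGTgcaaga
Ighv9-3: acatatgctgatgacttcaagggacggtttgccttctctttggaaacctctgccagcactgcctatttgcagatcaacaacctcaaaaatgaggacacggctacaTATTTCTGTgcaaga
Ighv6-6: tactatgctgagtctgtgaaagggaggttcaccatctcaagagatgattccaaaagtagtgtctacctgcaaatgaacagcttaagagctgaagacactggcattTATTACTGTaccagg
Ighv5-17: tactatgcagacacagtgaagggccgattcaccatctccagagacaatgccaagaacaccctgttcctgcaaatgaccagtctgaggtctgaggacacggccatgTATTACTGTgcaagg
Ighv3-8: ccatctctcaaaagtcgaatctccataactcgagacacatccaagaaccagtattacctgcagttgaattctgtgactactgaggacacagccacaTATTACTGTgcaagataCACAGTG
Ighv3-8 is added because its log2 fold change had the smallest p of the members, and it was chosen after its values were seen. Its annotated transcript runs past the cysteine codon into CACAGTG, the heptamer of the recombination signal, also in capitals. In the last 150 bases of the transcript, read on its own strand, TATTNNTGT was found in 79.6% of the 113 genes annotated as functional (90 genes) and in 52.9% of the 70 annotated as pseudogenes (37 genes). CACAGTG followed that motif in 1 member of all 185, which is Ighv3-8.

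All 185 members lie on chromosome 12 between positions 113572927 and 116010093 of GRCm38, a span of 2437 kb, and 183 of them are on the minus strand. The other 2 are annotated as V-like genes on the plus strand, carry the symbols of other members and had 0 counts. By symbol the members form 16 families. Ighv1-9 (ENSMUSG00000094694) lies at positions 114583569 to 114584002, Ighv9-3 (ENSMUSG00000096459) at 114140692 to 114141122, Ighv6-6 (ENSMUSG00000076680) at 114434788 to 114435244, Ighv5-17 (ENSMUSG00000095571) at 113859149 to 113859670 and Ighv3-8 (ENSMUSG00000076674) at 114322327 to 114322801. The exons of the 20 members named in the comparisons add up to between 347 and 405 bases each.

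Libraries held between 11308285 and 14620148 counts, and the T cell genes Cd4 and Cd3e were at 340.5 ± 26.1 and 273.8 ± 27.0 CPM (the deposited counts scaled to library size with TMM factors; SD, n = 6) in GLC and at 371.3 ± 22.5 and 281.6 ± 20.8 CPM (SD, n = 5) in WT. GLC replicate 78 combined 2 mice. GLC replicate 9 stood apart by sex-linked genes, with 11 counts of Xist and 633 counts over 4 Y-linked genes, against 2992 to 5943 and 0 to 1 in the other 10 libraries. WT replicate 4 stood apart by its low Ighv total. Summed measures are given with and without these libraries, and shares with and without WT replicate 4.

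Ighv transcripts were rare in every library and varied widely between libraries of the same group. The members had 11393 counts in all, 7761 in GLC and 3632 in WT. Summed over members, the level in GLC replicates 6, 78, 9, 10, 11 and 12 was 91.1, 189.4, 113.9, 79.8, 33.8 and 112.9 CPM. In WT replicates 1 to 5 it was 69.1, 21.3, 39.1, 5.20 and 124.3 CPM. The group means were 103.5 ± 51.3 CPM (SD, n = 6) in GLC and 51.8 ± 46.9 CPM (SD, n = 5) in WT, and the WT mean was exceeded by 5 of 6 GLC libraries. The groups overlapped: WT replicate 5 exceeded every GLC library except replicate 78, and GLC replicate 11 lay below 3 of the 5 WT libraries. On the log2 scale the mean difference was 1.49, where the SD within groups was 0.82 in GLC and 1.76 in WT. Leaving out GLC replicate 78 gave 1.28 and leaving out GLC replicate 9 gave 1.43. Leaving out WT replicate 4 gave 0.83, and WT replicate 5, 1.97. With GLC replicate 78 and WT replicate 4 both left out it was 0.62. The sum was not tested, since it is a score over genes chosen with results known. In bulk samples, fewer cells of a type and less RNA per cell cannot be told apart.

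**Figure D1:**
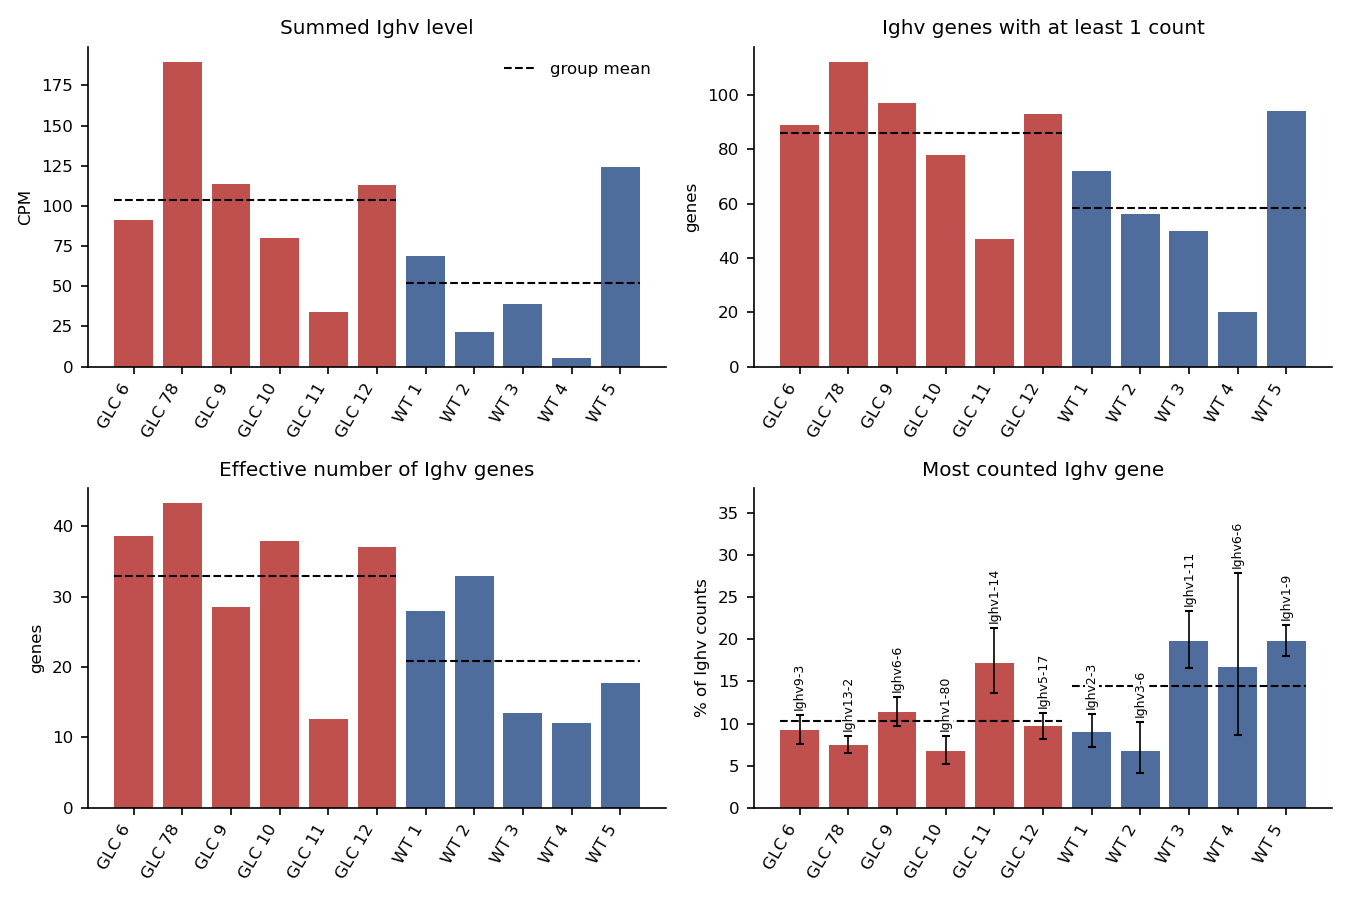
Ighv genes in each library, with GLC libraries in red and WT libraries in blue: the summed level (CPM), the number of genes with at least 1 count, the effective number of genes, and the share of Ighv counts held by the most counted gene, whose error bars are exact 95% binomial intervals. Dashed lines are group means; the summed level spans 33.8 to 189.4 CPM in GLC and 5.20 to 124.3 CPM in WT.

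At least 1 count was found for 129 of the 185 members (69.7%), of which 97 are annotated as functional and 32 as pseudogenes. Members with a count numbered 89, 112, 97, 78, 47 and 93 in GLC replicates 6, 78, 9, 10, 11 and 12, and 72, 56, 50, 20 and 94 in WT replicates 1 to 5. The lowest and the highest number belong to the libraries of lowest and highest Ighv count, 66 in WT replicate 4 and 2472 in GLC replicate 78, but the order between them is not that of the counts: WT replicate 2 had 56 members in 298 counts and GLC replicate 11 had 47 in 389. Only 6 members had a count in all 11 libraries, namely Ighv2-6-8, Ighv3-2, Ighv3-6, Ighv2-9, Ighv4-2 and Ighv5-9. With WT replicate 4 set aside, 16 members had a count in every library, these 6 among them. Among the rest, 18 members had counts in GLC libraries alone and 5 in WT libraries alone. GLC had 6 libraries and 7761 Ighv counts, against 5 libraries and 3632 counts in WT. The part of depth in these numbers was not tested, and the share of all genes found in 1 group alone was not computed. The largest of the GLC-only members, Ighv1-37, named after its values were seen, had 52 counts spread over 4 GLC libraries. None of the WT-only members had more than 5 counts. For a member with 0 counts in all WT libraries, 3 counts over the group allow a level of up to 0.0439 CPM, and a member with 0 counts in all 11 libraries may reach 0.0211 CPM. Such limits and the binomial intervals cover counting error only.

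The leading V gene differed between most libraries. The most counted member was Ighv9-3 in GLC replicate 6, with 9.19% of that library's Ighv counts (exact 95% interval 7.58 to 11), Ighv13-2 in GLC replicate 78 with 7.44% (6.44 to 8.55) and Ighv6-6 in GLC replicate 9 with 11.4% (9.71 to 13.2). In GLC replicate 10 Ighv1-80 and Ighv1-9 tied with 64 counts each, or 6.75% (5.24 to 8.54). GLC replicate 11 was led by the pseudogene Ighv1-14 with 17.2% (13.6 to 21.4), with Ighv6-6 next at 17%, and GLC replicate 12 by Ighv5-17 with 9.67% (8.20 to 11.3). Among WT libraries, Ighv2-3 led replicate 1 with 9.05% (7.24 to 11.1) and Ighv3-6 led replicate 2 with 6.71% (4.15 to 10.2). Ighv1-11 held 19.9% (16.6 to 23.4) in WT replicate 3, Ighv6-6 held 16.7% (8.62 to 27.9) in WT replicate 4 and Ighv1-9 held 19.8% (18.0 to 21.7) in WT replicate 5. Thus 10 different genes led the 11 libraries, and with the tie counted Ighv6-6 and Ighv1-9 led in both groups. The leading share averaged 10.3 ± 3.78% (SD, n = 6) in GLC and 14.4 ± 6.17% (SD, n = 5) in WT, a difference of -4.15 percentage points that lies within the spread of WT libraries. Without WT replicate 4 the WT mean was 13.9 ± 6.97%.

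**Figure D2:**
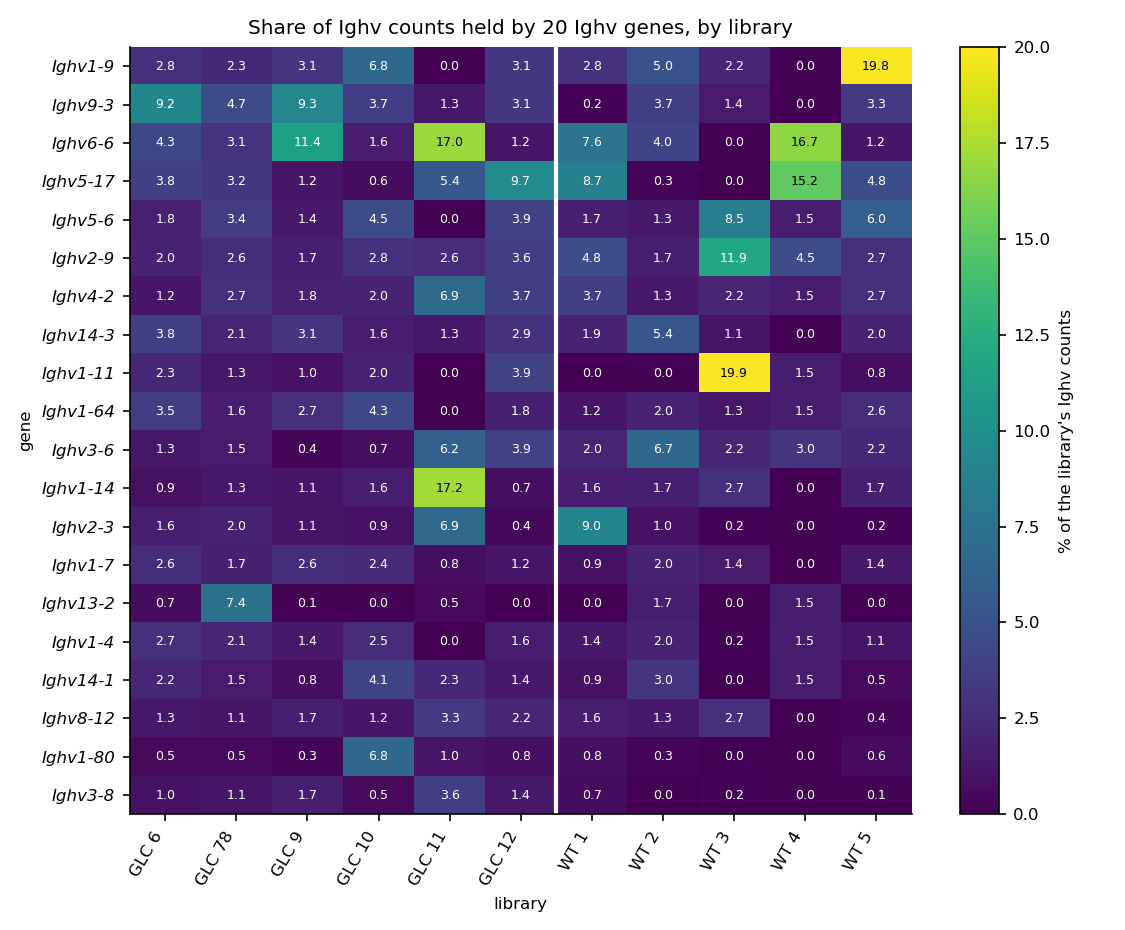
Share of each library's Ighv counts (%) held by the 20 Ighv genes named by rule, in rows by mean level, with the 6 GLC libraries on the left and the 5 WT libraries on the right. Some high cells are single libraries, such as Ighv1-9 at 19.8% in WT replicate 5, Ighv1-11 at 19.9% in WT replicate 3 and Ighv1-14 at 17.2% in GLC replicate 11. Ighv6-6 is high in several, at 17% in GLC replicate 11, 16.7% in WT replicate 4 and 11.4% in GLC replicate 9.

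Some of the named members owed much of their count to 1 library. A single library held 55.4% of all counts of Ighv1-9, 40.6% of Ighv1-11, 37.6% of Ighv2-3, 91.5% of Ighv13-2 and 52.5% of Ighv1-80, against 24.0% of Ighv9-3. Per kilobase of exon, the mean level over the 11 libraries was 12.4 CPM for Ighv1-9, 10.4 for Ighv9-3, 10.1 for Ighv6-6 and 8.30 for Ighv5-17. Ighv1-9, a family 1 gene, was at 2.53, 4.37, 3.51, 5.38, 0 and 3.53 CPM in GLC replicates 6, 78, 9, 10, 11 and 12, and at 1.95, 1.07, 0.848, 0 and 24.7 CPM in WT replicates 1 to 5. A single WT library therefore stood above all others, and the remaining 4 WT libraries lay below every GLC library that had the gene. Its log2 fold change of -0.83 (SE 0.95) became 1.73 without WT replicate 5. Ighv1-11 was at 1.11 to 4.38 CPM in 5 GLC libraries and 0 in replicate 11, and at 7.77 CPM in WT replicate 3 against at most 0.951 CPM in the other WT libraries. Ighv2-3 was at 0.461 to 3.83 CPM in GLC, and at 6.25 CPM in WT replicate 1 against at most 0.272 CPM in the other WT libraries. Ighv13-2 had 184 counts in GLC replicate 78, the library of 2 mice, and at most 8 counts in any other library, GLC or WT. Ighv1-80 was at 5.38 CPM in GLC replicate 10, at most 0.996 CPM in the other GLC libraries and at most 0.747 CPM in WT. The first 12 members by mean level held 39.2% of all Ighv counts.

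The spread of counts over members was described by an effective number, the number of equally used genes that would give the same chance of drawing 1 gene for a pair of counts. It was 38.6, 43.3, 28.5, 38, 12.6 and 37 in GLC replicates 6, 78, 9, 10, 11 and 12, and 27.9, 33.0, 13.5, 12 and 17.8 in WT replicates 1 to 5. The means were 33.0 ± 11.1 genes (SD, n = 6) in GLC and 20.8 ± 9.21 genes (SD, n = 5) in WT. Of the GLC libraries, 4 lay above the highest WT library, replicate 9 lay between WT libraries, and replicate 11 lay below 4 of the 5 WT libraries. The difference of 12.2 genes was 13.1 without GLC replicate 9, 10.1 without GLC replicate 78 and 9.95 without WT replicate 4. At an equal depth of 66 Ighv counts, the count of WT replicate 4, the expected number of members seen was 37.2, 39.1, 35.1, 36.2, 24.0 and 37.0 in GLC replicates 6, 78, 9, 10, 11 and 12, and 32.9, 32.7, 25.6, 20 and 33.1 in WT replicates 1 to 5. At this depth 5 of the 6 GLC libraries lay above all WT libraries, and GLC replicate 11 lay below 4 of them. At 298 Ighv counts, the count of WT replicate 2, WT replicate 4 could not be included. There 4 of the 6 GLC libraries lay above all WT libraries that remained. GLC replicate 10, at 66.0, lay below WT replicate 5, at 66.4, and GLC replicate 11, at 43.6, lay below all of them. These measures were not tested, for the same reason as the sum.

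The share of usage that libraries had in common was the sum, over members, of the smaller of both libraries' shares. It had a median of 57.7% over the 15 pairs of GLC libraries (30.1 to 66.2), 46.5% over the 30 pairs of a GLC with a WT library (22.8 to 59.1) and 37.7% over the 10 pairs of WT libraries (22.5 to 49.8). Without WT replicate 4 the last 2 medians were 48.6% and 42.3%. Pairs share libraries and low counts lower this measure, so the medians are descriptions. GLC libraries had larger Ighv totals on average, and the part of depth in this order was not tested.

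Along the locus, counts came from near the D segments to the far end. The 92 members nearest the D segments held 67.4 ± 2.99% of Ighv counts (SD, n = 6) in GLC and 77.3 ± 9.33% (SD, n = 5) in WT. The GLC libraries ranged from 62.0 to 71.0% and the WT libraries from 69.8 to 92.4%, the highest being WT replicate 4, without which the WT mean was 73.5 ± 4.56% (SD, n = 4). The WT mean was exceeded by 0 of 6 GLC libraries, and the ranges overlapped. Ighv5-6 and Ighv2-3 lie 52.6 and 38.3 kb from the V gene nearest the D segments, Ighv1-9 lies 1011 kb from it, and Ighv8-12 and Ighv1-80 lie 2075 and 2339 kb from it.

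**Figure D3:**
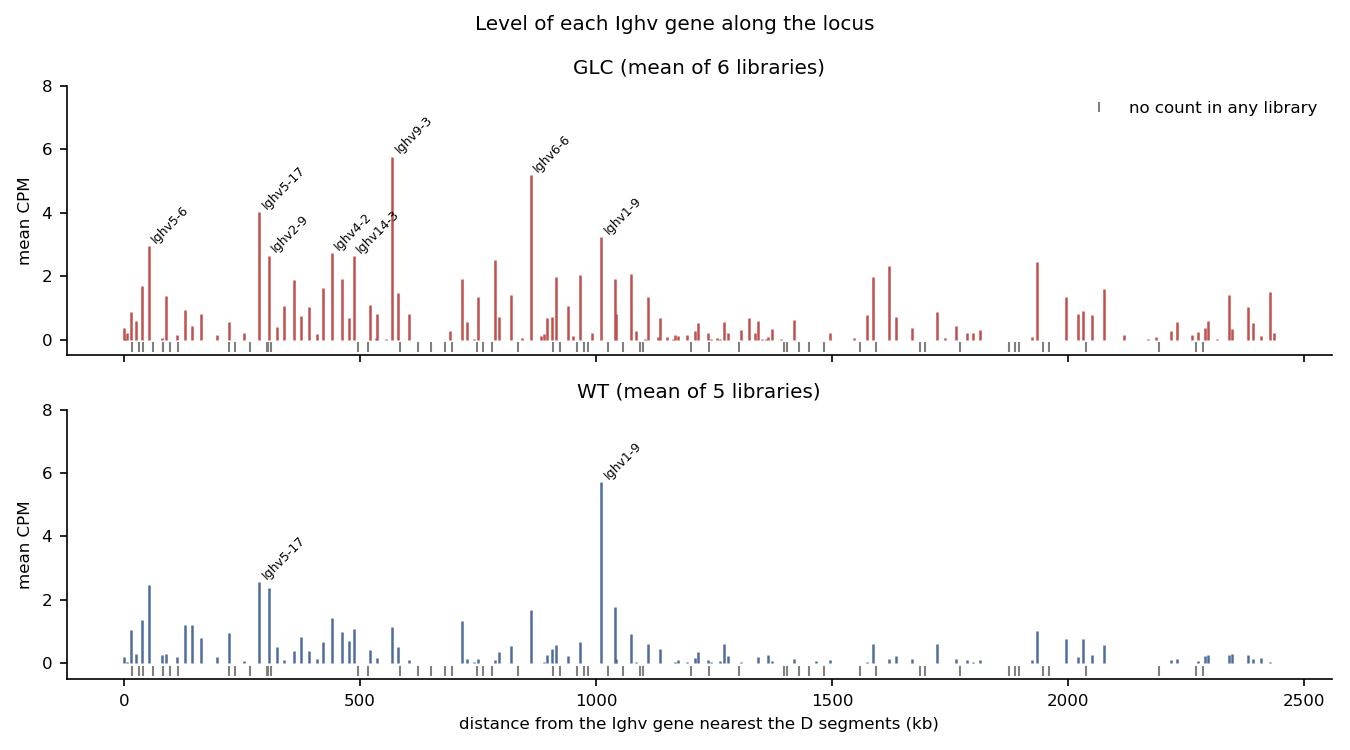
Mean level (CPM) of each of the 185 Ighv genes against its distance (kb) from the Ighv gene nearest the D segments, for GLC above and WT below, with grey ticks for members without a count. The tallest WT line, Ighv1-9 at 5.71 CPM, comes from WT replicate 5, whereas in GLC Ighv9-3 reaches 5.77 CPM and Ighv6-6 5.19 CPM.

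By family, family 1 with 93 members held 39.2 ± 6.91% of Ighv counts (SD, n = 6) in GLC and 34.7 ± 9.74% (SD, n = 5) in WT. Family 5, near the D segments, held 10.6 ± 3.42% in GLC and 15 ± 7.41% in WT. Family 2 held 7.01 ± 2.95% in GLC and 13.8 ± 6.81% in WT, with 21.4% in WT replicate 1. Family 9 held 7.19 ± 3.97% in GLC and 2.82 ± 2.68% in WT, and family 14 held 6.75 ± 1.61% in GLC and 4.58 ± 4.04% in WT. Without WT replicate 4 the WT means of families 1, 2, 5, 9 and 14 were 38.1, 13.1, 12.7, 3.52 and 5.34%. For each of these families the libraries of both groups overlapped. Families 11 and 12, known in mice from B-1 cells, had 125 and 84 counts in all. Family 11 had 27, 34, 2, 1, 0 and 2 counts in GLC replicates 6, 78, 9, 10, 11 and 12, and 25, 0, 0, 0 and 34 in WT replicates 1 to 5. Family 12 had 52 of its 84 counts in GLC replicate 12. Family 15 had 15 counts, all in GLC replicates 78 and 10, and the single member of family 16, Ighv16-1, had 0 counts.

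The comparison of GLC with WT asks whether transcripts of lymph node CD4+ cell preparations differ when macrophages lack Pggt1b. No Ighv gene passed the threshold with edgeR, and DESeq2 called 1. The filter on low counts, which asks for about 0.783 CPM in at least 5 libraries, left 34 of the 185 members (31 functional and 3 pseudogenes, with 67.7% of all Ighv counts), and 151 were not tested. The filter took 19 of the 34 with at least 5 GLC libraries over that level and 21 with at most 2 WT libraries over it, so the tested members do not stand for all members. In edgeR's quasi-likelihood test, 0 of the 34 passed an adjusted p of 0.05, as did 0 of all 12404 genes tested (0%), and the smallest adjusted p of the 34 was 0.9997. At an unadjusted p under 0.05, 7 members were higher in GLC and 0 lower, against 2.75% and 1.79% of all genes tested. A log2 fold change above 0 was found for 30 of the 34, against 49.9% of all genes tested, with a median of 1.02 over the members and of -0.000160 over all genes. Ighv1-9, Ighv5-12, Ighv2-2 and Ighv4-1 were the 4 below 0, the last 3 named after their values were seen. With every gene of at least 1 count kept, 38 of 129 members had an unadjusted p under 0.05 and were higher (3.3% of all 26249 genes), 2 were lower, 104 were above 0 (51.2% of all genes), and 0 passed. Members share the antibody RNA of each library, so their counts move together and these numbers are not independent.

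The member of smallest p was Ighv3-8, a family 3 gene. It was at 0.868, 2.15, 1.89, 0.421, 1.22 and 1.54 CPM in GLC replicates 6, 78, 9, 10, 11 and 12, and at 0.469, 0, 0.0706, 0 and 0.136 CPM in WT replicates 1 to 5. Only WT replicate 1 reached into the GLC range, where it exceeded GLC replicate 10. The log2 fold change was 3.26 (SE 0.66, unadjusted p = 0.000205, adjusted p = 0.9997 with edgeR), and the WT mean was exceeded by 6 of 6 GLC libraries. DESeq2 gave 3.34 and an adjusted p of 0.0142, and called 2 genes in all (0.0161% of those tested), of which Ighv3-8 was the only member. It passed the filter through the GLC libraries alone, with 5 GLC and 0 WT libraries over the level asked, so it could be tested only because it was high in GLC. With GLC replicate 10 or any 1 WT library left out, edgeR gave log2 fold changes between 2.95 and 4.42 and no call. With any of the other 5 GLC libraries left out it did not pass the filter and was not fitted.

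The other 6 members with an unadjusted p under 0.05 were Ighv14-1, Ighv9-3, Ighv8-12, Ighv1-7, Ighv1-4 and Ighv6-6, none of which passed (adjusted p = 0.9997 with edgeR). Like Ighv3-8, Ighv14-1 passed the filter with 5 GLC and 0 WT libraries over the level asked. Ighv14-1 was at 0.783 to 3.28 CPM (median 1.75) in GLC and at 0.63, 0.645, 0, 0.0787 and 0.611 CPM in WT replicates 1 to 5. It was the only one of the 34 whose groups did not overlap, where 0.153% of all genes tested were separated upward and 0.177% downward, and its way through the filter favours such a separation. Its log2 fold change was 2.22 (SE 0.59), and between 1.90 and 2.47 with GLC replicate 11 or any 1 WT library left out. With any of the other 5 GLC libraries left out it did not pass the filter. Ighv9-3 was at 0.435 to 10.5 CPM (median 5.95) in GLC, and at 0.156, 0.788, 0.565, 0 and 4.14 CPM in WT replicates 1 to 5. Here GLC replicate 11 lay among the low WT libraries and WT replicate 5 among the GLC libraries, and the log2 fold change was 2.31 (SE 0.81). Ighv6-6 was at 1.26 to 12.9 CPM (median 4.84) in GLC, and at 5.23, 0.860, 0, 0.866 and 1.49 CPM in WT replicates 1 to 5, with a log2 fold change of 1.63 (SE 0.74). Ighv8-12, far from the D segments, was at 0.925 to 2.46 CPM (median 1.53) in GLC, and at 1.09, 0.287, 1.06, 0 and 0.475 CPM in WT replicates 1 to 5. Its log2 fold change was 1.45 (SE 0.53), with WT replicates 1 and 3 inside the GLC range. Ighv1-7 was at 0.261 to 3.29 CPM (median 2.15) in GLC, and at 0.63, 0.430, 0.565, 0 and 1.70 CPM in WT replicates 1 to 5. Ighv1-4, its nearest relative among the members by sequence, was at 0 to 4.06 CPM (median 1.93) in GLC, and at 0.938, 0.430, 0.0706, 0.0787 and 1.43 CPM in WT replicates 1 to 5. In both family 1 genes GLC replicate 11 was the lowest GLC library and WT replicate 5 the highest WT library, and the log2 fold changes were 1.58 (SE 0.63) for Ighv1-7 and 1.73 (SE 0.74) for Ighv1-4. Reads of this pair may be shared, since 96.9% of their aligned bases are identical. The number of members with an unadjusted p under 0.05 moved with single libraries, as did the share of all genes that were higher at that p. It was 2 of 22 members tested with GLC replicate 78 left out (1.77% of all genes), 5 of 25 with GLC replicate 9 left out (3.15%) and 12 of 33 with GLC replicate 11 left out (4.32%). It was 5 of 39 with WT replicate 4 left out (2.04%) and 15 of 37 with WT replicate 5 left out (4.01%).

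**Figure D4:**
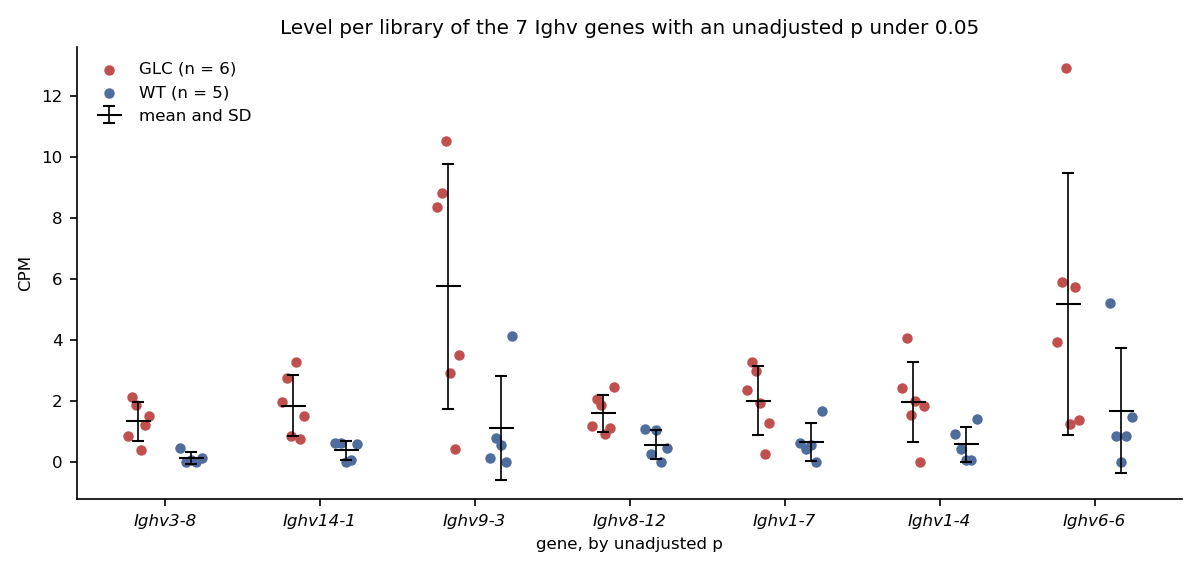
Level (CPM) in each library of the 7 Ighv genes with an unadjusted p under 0.05, ordered by p, with GLC (red, n = 6) left of WT (blue, n = 5) and the mean and SD in black. Ighv14-1 is the gene without overlap, with GLC libraries from 0.783 CPM upward and WT libraries up to 0.645 CPM.

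Among the remaining members named by level, the log2 fold changes lay between 0.12 for Ighv1-11 (SE 1.02) and 1.27 for Ighv14-3 (SE 0.64), apart from Ighv1-9. Ighv5-17 was at 0.505 to 10.9 CPM (median 2.65) in GLC, and at 6.02, 0.0716, 0, 0.787 and 5.98 CPM in WT replicates 1 to 5, with a log2 fold change of 0.65 (SE 0.90) that was 0.05 without GLC replicate 12 and 1.26 without WT replicate 5. The WT libraries lay at or below 0.787 CPM or at 5.98 CPM and above, and the GLC libraries spanned both ranges. Ighv5-6 and Ighv2-9 had log2 fold changes of 0.25 (SE 0.84) and 0.16 (SE 0.60), which became negative without single libraries. Ighv14-3 was at 0.435 to 3.91 CPM (median 3.35) in GLC, and at 1.33, 1.15, 0.424, 0 and 2.51 CPM in WT replicates 1 to 5. Ighv1-64 was at 0 to 3.45 CPM (median 3.07) in GLC, and at 0.859, 0.430, 0.494, 0.0787 and 3.19 CPM in WT replicates 1 to 5, with a log2 fold change of 1.26 (SE 0.73). In these genes 4 or 5 GLC libraries lay above 4 of the WT libraries, and WT replicate 5 lay among the GLC libraries. Ighv3-6 was at 0.428 to 4.38 CPM (median 1.64) in GLC, and at 1.41, 1.43, 0.848, 0.157 and 2.78 CPM in WT replicates 1 to 5, with a log2 fold change of 0.52 (SE 0.60) that was 0.08 without GLC replicate 12 and 0.99 without WT replicate 5. The log2 fold change of Ighv2-3 was 0.33 (SE 0.94).

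Pseudogenes held 12.7 ± 8.49% of Ighv counts (SD, n = 6) in GLC and 10.7 ± 3.58% (SD, n = 5) in WT, or 9.54 ± 2.95% in WT without replicate 4. The highest share was 29.6%, in GLC replicate 11, where Ighv1-14 had 67 of the library's 389 Ighv counts. Ighv4-2, the pseudogene of highest level, had a count in all 11 libraries, with 14, 66, 24, 19, 27 and 55 counts in GLC replicates 6, 78, 9, 10, 11 and 12, and 33, 4, 12, 1 and 49 in WT replicates 1 to 5. Of its reference transcript, 65.2% of the 50-base words occur in no other gene's transcript, and 86.7% for Ighv1-14. The sources used here do not say how reads that map to several genes were counted.

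Near-identical V genes can share or lose reads in counting. Of the 113 functional members, 16 had under 50% of their 50-base words to themselves, with a median of 20.5 counts over all libraries. The 31 with 50 to 75% had a median of 53 counts, and the 66 with at least 75% had a median of 68.5. The median share of unique words was 77.7% over the 97 functional members with a count and 100% over the 16 with 0 counts. Of these 16, 9 consisted of unique words throughout, out of 20 such functional members, and 7 had under 75% unique words. Ighv1-62-2, which is among the last 7, is shown from the start codon beside its nearest relative, Ighv1-71, because the pair differs at a single base, in capitals. The pair was chosen after its values were seen.
Ighv1-71: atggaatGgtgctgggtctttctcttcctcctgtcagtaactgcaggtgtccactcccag
Ighv1-62-2: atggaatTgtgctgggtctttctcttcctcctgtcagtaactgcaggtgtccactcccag
Over the 359 bases compared, Ighv1-71 and Ighv1-62-2 differed by G8T, counted from the first base of the start codon with the base of Ighv1-71 first. Ighv1-71 (positions 115742205 to 115742647) had 2 counts and 2.58% unique words, and Ighv1-62-2 (positions 115446409 to 115446869) had 0 counts and 8.21% unique words. Over 351 bases Ighv1-72 and Ighv1-62-3 differed by C56T, T121A and T342C, and they had 8 and 0 counts. For such members a low or zero count does not show a low level.

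**Figure D5:**
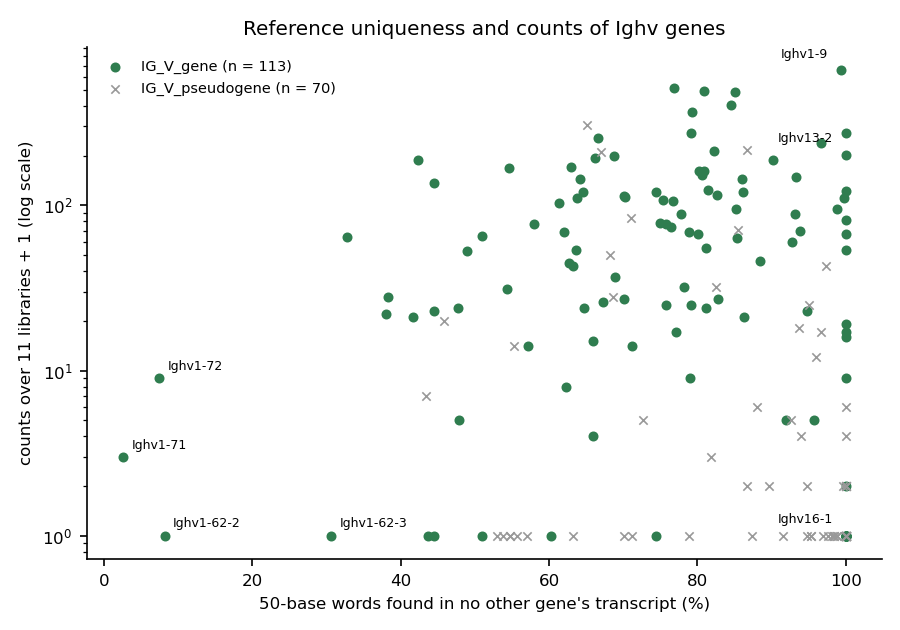
Counts of each Ighv gene over 11 libraries plus 1 (log scale) against the share of its 50-base words found in no other gene's transcript (%), for 113 functional genes (circles) and 70 pseudogenes (crosses). The near-identical genes Ighv1-71, Ighv1-72 and Ighv1-62-2 sit at the left with 2, 8 and 0 counts, and members with 0 counts occur across the axis.

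Heavy chain constant regions were counted far more often than V genes, and in 10 of the 11 libraries the ratio of both lay in a narrow range. Per 100 counts of the 8 constant region genes there were 16.2, 17.2, 17.7, 14.3, 16.8 and 18.4 Ighv counts in GLC replicates 6, 78, 9, 10, 11 and 12, and 17.6, 13.4, 19.1, 7.63 and 18.4 in WT replicates 1 to 5. The means were 16.8 ± 1.42 (SD, n = 6) in GLC and 15.2 ± 4.79 (SD, n = 5) in WT. WT replicate 4 lay below all other libraries, and without it the difference of 1.56 was -0.34. IgM (Ighm) made up 40.0 ± 8.37% of constant region counts in GLC and 51.9 ± 13.2% in WT, with 73.5% in WT replicate 4 and a WT mean of 46.5 ± 6.01% without it. The 4 IgG genes made up 54.5 ± 11.6% in GLC and 38.5 ± 17.8% in WT, or 45.7 ± 8.98% in WT without replicate 4. By mean level, Ighm was at 236.2 ± 113.7 CPM in GLC and 150.02 ± 129.4 CPM in WT. Ighg1 was at 124.5 ± 57.9 CPM in GLC and 32.8 ± 36.6 CPM in WT, Ighg2b at 95 ± 60.1 CPM in GLC and 42.1 ± 30.7 CPM in WT. Ighg2c was at 81.0 ± 59.9 CPM in GLC and 36.6 ± 24.0 CPM in WT, and Ighg3 at 47.6 ± 25.4 CPM in GLC and 15.7 ± 23.4 CPM in WT. Igha was at 23.4 ± 10.4 CPM in GLC and 20.7 ± 15.4 CPM in WT, and Ighe at 4.00 ± 3.72 CPM in GLC and 1.60 ± 2.46 CPM in WT. Ighd, a constant region that naive B cells express beside Ighm, was at 0.505 ± 0.297 CPM in GLC and 0.465 ± 0.276 CPM in WT. All 7 constant regions that passed the filter had a log2 fold change above 0, 2 of them (Ighg1 and Ighg3) with an unadjusted p under 0.05, and 0 passed (adjusted p = 0.9997 with edgeR). Of all genes tested, 49.9% lay above 0 and 2.75% were higher at that unadjusted p. Constant regions share the antibody RNA of each library, so these 7 are not independent. Light chain V genes had between 154 and 208 counts per 100 Ighv counts in every library. The joining segments Ighj1 to Ighj4, added after the data were seen, had 13 to 42 counts in GLC and 4 to 15 in WT.

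The marker genes of B cells and plasma cells differed in level, and the first 4 given here were chosen after their values were seen. Ms4a1, a surface gene of B cells, was at 0.285 ± 0.210 CPM (SD, n = 6) in GLC and at 0.422 ± 0.277 CPM (SD, n = 5) in WT. Cd22, another surface gene of B cells, was at 0.944 ± 0.312 CPM in GLC and 0.589 ± 0.383 CPM in WT. The plasma cell genes Mzb1 and Tnfrsf17 were at 0.360 ± 0.244 and 0.227 ± 0.212 CPM in GLC, and at 0.125 ± 0.172 and 0.0141 ± 0.0316 CPM in WT. Both had at most 9 counts in any library and were not tested, since they did not pass the filter. Jchain, which links antibody chains in secreted polymers, was at 50.2 ± 27.1 CPM in GLC and 29.9 ± 21.8 CPM in WT (log2 fold change 0.75, SE 0.50). The 12 B cell identity genes summed to 70.7 to 83.9 CPM in GLC and 65.2 to 81.1 CPM in WT, most of it Ralgps2, and 3 of the 4 that were tested lay above 0. The 12 plasma cell genes summed to 583.3 to 818.7 CPM in GLC and 492.2 to 873.6 CPM in WT, led by Irf4 and Xbp1, which activated T cells also express, and 6 of 10 tested lay above 0. Their median log2 fold change was 0.0068. Derl3, Prdm1, Irf4 and Sdc1 lay below 0, at -0.57, -0.11, -0.07 and -0.02, and are listed after their values were seen. Light chain constant regions lay above 0 in 4 of 4 tested, genes of the surrogate light chain and B cell receptor signalling in 2 of 6, with Vpreb2 and Igll1 at 0 counts, and germinal centre genes in 4 of 6. Genes of V recombination and mutation lay above 0 in 2 of 7. Octamer factors and V promoter control genes did so in 3 of 5. Among these, Pou2f2, which binds the octamer of V promoters, was at 113.6 ± 15.9 CPM in GLC and 83.7 ± 21.1 CPM in WT (log2 fold change 0.44, SE 0.15, adjusted p = 0.9997 with edgeR). Ets1 and Pou2f1, the genes of this list with higher mean levels, lay below 0, at -0.07 and -0.11. T cell identity genes lay above 0 in 2 of 10 tested, CD8 in 1 of 1, natural killer in 2 of 3, macrophage and monocyte in 1 of 1 and dendritic cell genes in 3 of 4. Of the neutrophil and red cell genes, 4 of 5 and 3 of 5 had 0 counts and none was tested. No gene of these lists passed, and of all genes tested 49.9% lay above 0. With the mean of the B cell identity genes as a covariate, 12 members rather than 7 were higher at an unadjusted p under 0.05 (3.06% of all genes) and 0 passed, and the part of plasma cells in the Ighv levels was not tested.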

How the data were processed

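RNA-seq counts per gene of 6 GLC and 5 WT libraries were deposited by the authors as whole-number counts, not normalized. The aligner STAR, the counter featureCounts and the build mm10 are named in the submitters' processing notes. The sources used here do not give versions, annotation, strand setting or the handling of reads that map to several genes. Identifiers were matched to GENCODE M21 (GRCm38) for 55144 of 55471 genes, and unmatched ones held 0.0155% of counts. Groups were read from the sample titles. Apart from the pooled GLC replicate 78, the labels do not say that each library is a separate mouse, so p-values measure only the spread between these samples.

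GLC and WT were compared in R 4.3.3 with edgeR 4.0.16 (filterByExpr with at least 10 counts, TMM, glmQLFit and glmQLFTest, two-sided, no covariates), with Benjamini-Hochberg adjustment over 12404 genes and a threshold of 0.05. Fold changes are GLC over WT. CPM use the TMM-scaled totals of the whole table. DESeq2 1.42.0, limma-voom (limma 3.58.1), other filters and scalings, a B cell covariate and each library left out in turn were alternatives. Expected member numbers at equal depth were computed by exact rarefaction, and 50-base words were compared with all GENCODE transcripts. The edgeR fit was also tested on simulated counts.

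Members and gene lists were chosen with earlier results of these data known. Named members were the 12 of highest mean CPM, the most counted in each library, those with an unadjusted p under 0.05, and Ighv3-8. Sequences are shown for the first 4 by mean CPM. Of other lists, heavy constant regions are given in full, and at most 3 genes per list by mean CPM unless stated.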

Additional observations from a re-analysis of the deposited data

Results flagged for a closer look

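Dixon's criterion was applied to the GLC and to the WT values of the 20 named members and of 4 summed measures, 48 groups in all. In 11 of them, all of named members, the highest library stood apart from the others of its group. Chance meets the criterion in about 1 in 20 groups of normally distributed values, a rate that low counts with zeros need not follow. Several of these members were also named because they lead a library, so the number of such groups is a description and not a result. In GLC, Ighv13-2 was at 14.1 CPM in replicate 78 (next 0.631), Ighv1-14 at 5.83 CPM in replicate 11 (next 2.38) and Ighv1-80 at 5.38 CPM in replicate 10 (next 0.996). In WT, replicate 5 stood apart for Ighv1-9 at 24.7 CPM (next 1.95), for Ighv9-3 at 4.14 CPM (next 0.788) and for Ighv1-64 at 3.19 CPM (next 0.859). WT replicate 1 stood apart for Ighv6-6 at 5.23 CPM (next 1.49), for Ighv2-3 at 6.25 CPM (next 0.272) and for Ighv3-8 at 0.469 CPM (next 0.136). WT replicate 3 stood apart for Ighv1-11 at 7.77 CPM (next 0.951), and WT replicate 2 for Ighv13-2 at 0.358 CPM (next 0.0787), a level of 5 counts.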

How the results depend on the processing

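The count of 0 Ighv genes called by edgeR was 0 under every edgeR and voom alternative run and 1 with DESeq2. The 7 members with an unadjusted p under 0.05 became 40 without a filter (129 members tested, 38 of them higher, where 3.3% of all genes were higher), 12 with the B cell covariate (3.06%), and between 2 (without GLC replicate 78, 1.77%) and 15 (without WT replicate 5, 4.01%) with 1 library left out, against 2.75% of all genes with all libraries. The leading share difference of -4.15 was -12.4 among genes with at least 10 counts in a library, of which WT replicate 4 had 2. The V to constant region difference of 1.56 was 11.9 with Ighm alone as denominator. Ighm made up 40.0% of constant region counts in GLC and 51.9% in WT. The part of these values in both shifts was not tested. Ighv1-9, at -0.83, was at 0.62 with voom. With 1 library left out it ranged from -1.15 to 1.73, Ighv5-6 from -0.14 to 1.28, Ighv2-9 from -0.13 to 0.56, Ighv1-11 from -0.30 to 2.80 and Ighv2-3 from -0.10 to 3.47 on the log2 scale. Leaving out GLC replicate 78 and WT replicate 4 together was chosen after seeing the data. No paired analysis was possible because the groups share no replicate numbers. With 66 to 2472 Ighv counts per library, most members rest on few counts, and a gene missing from a library is not shown to be absent.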
